A study of Glycine max with 108 samples.

Results

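The 5 genes described here are ACT11 (GLYMA_18G290800), CYP2 (GLYMA_12G024700), UKN1 (GLYMA_12G020500), SKIP16 (GLYMA_12G051100) and UKN2 (GLYMA_06G038500), genes in common use as internal references in soybean quantitative PCR. They were chosen by name for that use, with no threshold on their values, and make up 5 of the 57147 features listed in each expression table. All 5 had a mean of at least 1 FPKM (mapped fragments scaled for transcript length and library size) in both organs, the level above which features were tested. The tables hold IDs without names, and the pairing of name and ID was given with the choice of genes. It could not be checked against any file used here.

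The study asked how soybean responds when stresses are applied alone and together, and sequenced RNA from leaves and flowers of Magellan plants aged 31 days. All plants were of this cultivar and grew from seed coated with Bradyrhizobium japonicum, the nodulating symbiont, and each sample pooled tissue of 5 to 7 plants. The 18 treatments per organ were an untreated control, salinity (15 mM), acidity (pH 4), water deficit (irrigation at 30% of the transpirable water, against 100% in the others), low phosphate (reduced by 90%) and cadmium (300 µM), then every pair, triple and the 4-way combination of the first 4 stresses, and lastly all 5 stresses. A triple is named below by the one of these 4 stresses it lacks. The control, the 4 single stresses without cadmium and their combinations form a complete factorial of 16 treatments. The pH and the size of the phosphate reduction are given for the single stresses, and the same levels are assumed in the combinations.

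Of 108 columns, 4 were arithmetic means of the other 2 columns of their group and were left out, which left 53 leaf and 51 flower libraries. Those 4 columns were leaf control replicate 3 and flower replicate 1 of acidity, of water deficit and of the 4-stress combination, so these groups had n = 2 and the other 32 groups n = 3. Read totals are unknown, since the tables give FPKM. The columns summed to between 617269 and 713376 FPKM in leaf and between 611857 and 680482 in flower, and a median-ratio scale factor spanned 0.824 to 1.127 in leaf and 0.971 to 1.054 in flower. The organ labels could not be checked against marker genes, because no ID matched the names table used here.

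A quantitative PCR result is read as the amount of a target transcript over that of 1 or more reference transcripts, so any change in the reference passes into the result with its sign turned. ACT11 encodes an actin, a subunit of the actin filaments of the cytoskeleton. CYP2 encodes a cyclophilin, a peptidyl-prolyl isomerase that assists protein folding. SKIP16 encodes an F-box protein, the class of subunit that brings substrates to SCF ubiquitin ligases, and UKN1 and UKN2 carry names that stand for products of unknown function.

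In flowers, SKIP16 and UKN2 passed no test of change in any treatment, and SKIP16 had one of the narrowest spreads of treatment means among the tested flower features. In leaves, each of the 5 genes passed a test of change over the treatments, as did 93.6% of tested features, against 52.0% in flowers. Against the leaf control, CYP2 rose in 14 of 17 treatments, by up to 2.32-fold, and SKIP16 fell in 11. UKN1 fell in 6, UKN2 rose in 5, and ACT11 rose in 5 and fell in 3. The median share of features called per leaf treatment was 49.2%. All 17 comparisons share the same 2 leaf control libraries, so their calls are not separate observations. With each library scaled by median ratios, ACT11 in leaf rose in 6 and fell in 1, SKIP16 fell in 6, UKN1 fell in 3, CYP2 rose in 15 and UKN2 rose in 6. By the SD of treatment means, SKIP16 was the most level and UKN2 the next in both organs, CYP2 was the least level in both, and ACT11 and UKN1 exchanged places between them. These are differences per mapped fragment in bulk tissue, in which fewer cells of a type and less RNA per cell cannot be told apart.

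**Figure D1:**
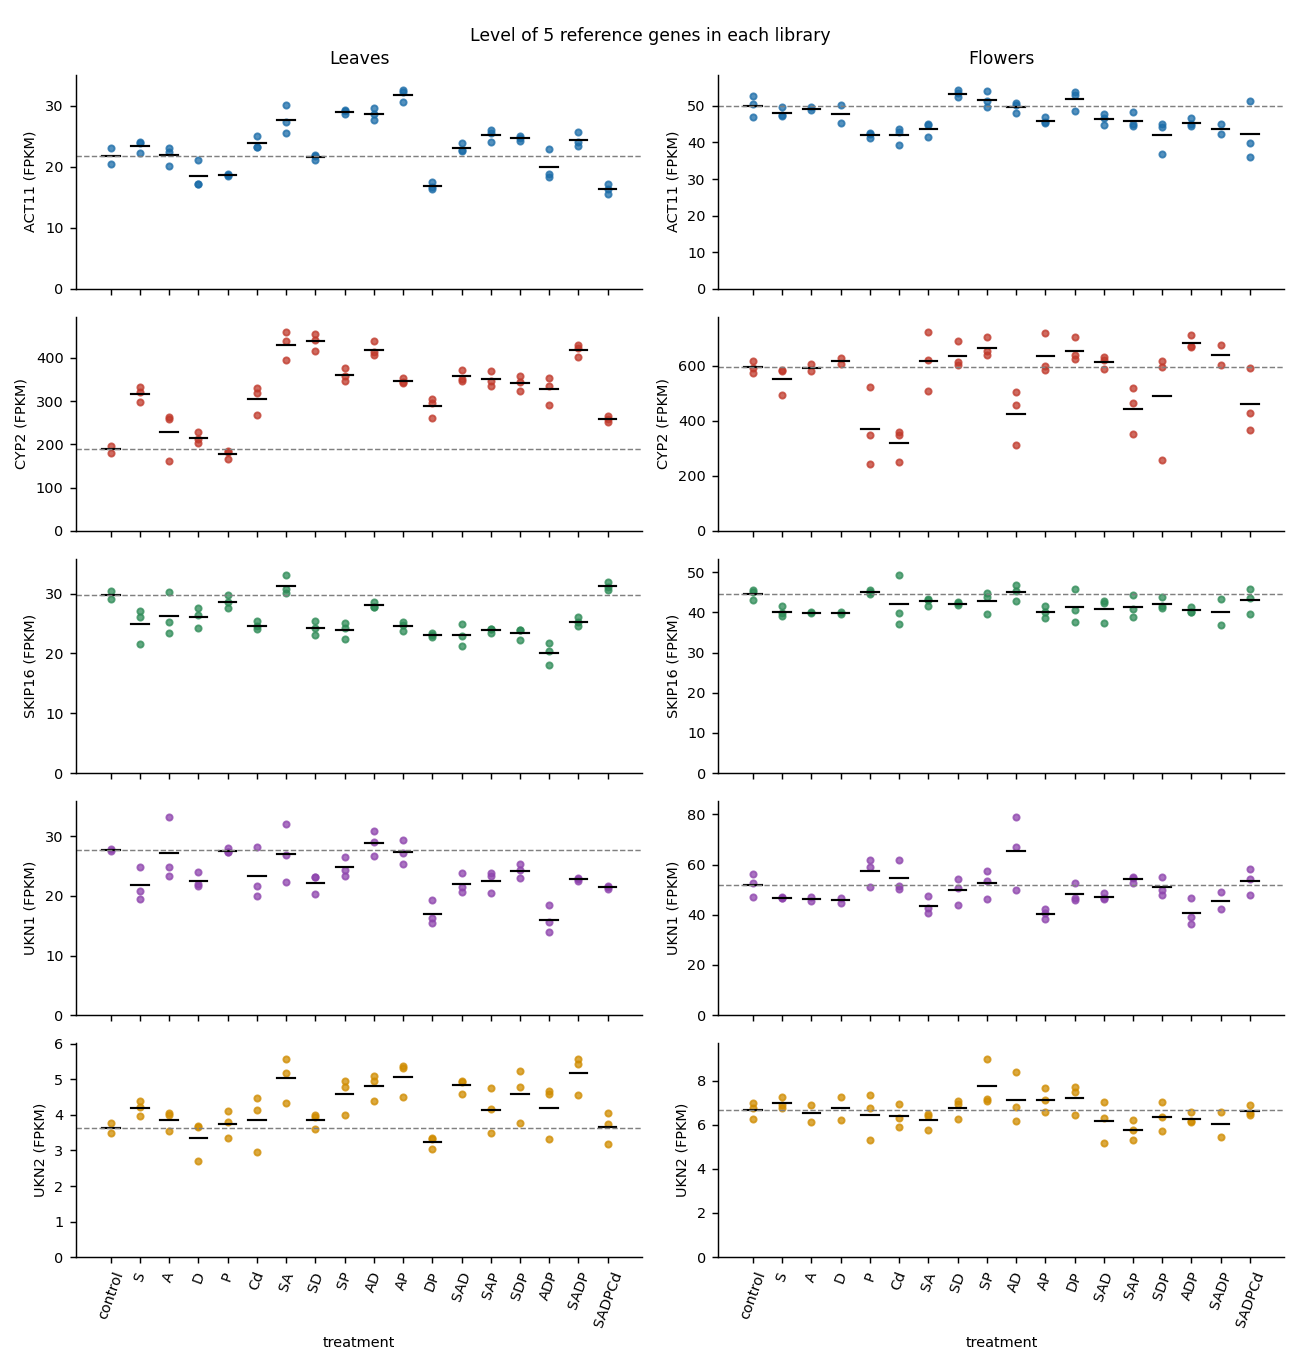
Level of each reference gene in FPKM (vertical axes, each starting at 0) in every leaf and flower library, by treatment; each point is 1 library, the short line the treatment mean and the dashed line the control mean (S salinity, A acidity, D water deficit, P low phosphate, Cd cadmium). CYP2 lay far above the other 4 genes in each library and UKN2 far below, and CYP2 was scattered between 245 and 722 FPKM among flower libraries.

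CYP2 was the highest of the 5 genes in all 53 leaf and all 51 flower libraries, and UKN2 the lowest in each of them. Median levels over leaf libraries were 336 FPKM for CYP2, 24.9 for SKIP16, 23.3 for UKN1, 23.2 for ACT11 and 4.14 for UKN2. The medians over flower libraries were 596 FPKM for CYP2, 48.0 for UKN1, 46.7 for ACT11, 41.7 for SKIP16 and 6.57 for UKN2. The leaf and flower tables were normalized apart, so these levels stand side by side and were not compared between the organs.

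The 3 genes in the middle changed places. ACT11 exceeded SKIP16 in 20 of 53 leaf libraries and in 43 of 51 flower libraries. UKN1 exceeded SKIP16 in 17 leaf and 46 flower libraries, and ACT11 exceeded UKN1 in 30 and 23. CYP2 lay above 99.2% of the tested features in leaf and 99.9% in flower, whereas UKN2 lay above 37.5% and 46.7%.

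The first question was whether each gene varied at all over the 18 treatments of an organ. A limma F-test on log2(FPKM + 1), adjusted over all tested features by the Benjamini-Hochberg method, called 5 of 5 genes in leaf, where 93.6% of 28678 tested features were called. The adjusted p was 8.16e-17 for CYP2, 4.28e-16 for ACT11, 5.58e-09 for SKIP16, 1.53e-07 for UKN1 and 0.000155 for UKN2. Most leaf features passed this test, so a count of 5 of 5 is near the background.

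In flower, the same limma F-test called 3 of the 5, where 52.0% of 33792 tested features were called. The adjusted p was 0.000539 for UKN1, 0.000722 for CYP2 and 0.000835 for ACT11. SKIP16 had an adjusted p of 0.472 and UKN2 one of 0.232, neither past the 0.05 threshold. The 5 leaf calls were kept without each replicate number in turn, and the 3 flower calls were not. With replicate 3 of each treatment left out, the adjusted p by limma was 0.269 for ACT11, 0.0752 for CYP2 and 0.156 for UKN1. Without replicate 2 it was 0.124 for ACT11 and 0.108 for CYP2.

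The size of the variation was described by the SD of the 18 treatment means on the log2(FPKM + 1) scale, set beside the pooled SD within treatments. In leaf, CYP2 had an SD of means of 0.40, ACT11 0.26, UKN1 0.22, UKN2 0.17 and SKIP16 0.16, beside a median of 0.28 over the tested features. The pooled SD within treatments was 0.13 for CYP2, 0.08 for ACT11, 0.14 for UKN1, 0.14 for UKN2 and 0.09 for SKIP16. ACT11 was thus tight among replicates and wide among treatments, and UKN2 nearly as wide among replicates as among treatments. On log2(FPKM) without the added 1, the SD of leaf treatment means was 0.21 for UKN2, 0.23 for UKN1 and 0.17 for SKIP16. UKN2 was then nearer to UKN1 than to SKIP16.

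In flower, the SD of treatment means was 0.33 for CYP2, 0.17 for UKN1, 0.11 for ACT11, 0.09 for UKN2 and 0.06 for SKIP16, beside a median of 0.15 over the tested features. SKIP16 ranked among the narrowest, since 0.692% of tested flower features had a lower value, whereas 90.9% had a lower value than CYP2. The corresponding shares in flower were 11.2% for UKN2, 24.7% for ACT11 and 58.2% for UKN1. In leaf they were 13.0% for SKIP16, 15.1% for UKN2, 33.4% for UKN1, 44.6% for ACT11 and 73.4% for CYP2. CYP2 and, in flower, UKN1 varied more than the median tested feature.

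**Figure D2:**
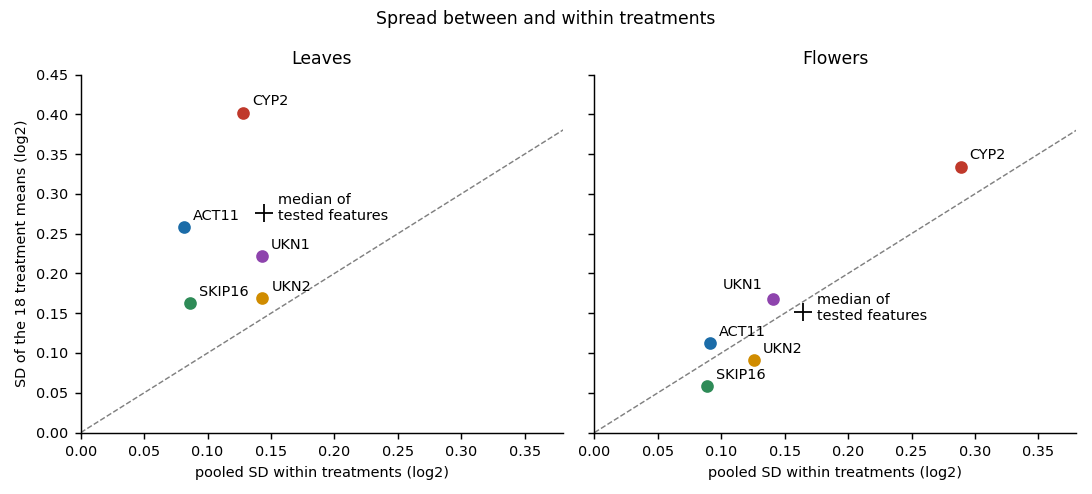
Each gene's SD of its 18 treatment means (vertical axis, log2) against its pooled SD within treatments (horizontal axis, log2), in leaf and flower; the cross marks the median of the tested features and the dashed line equal values. In flower, SKIP16 and UKN2 lie below the line and CYP2 far up the right, at 0.33 and 0.29.

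CYP2, the cyclophilin gene, gave the widest response in leaves. The control libraries held 180 and 197 FPKM, and low phosphate alone gave 181, 185 and 166, water deficit 204, 229 and 213, and acidity 264, 258 and 162. Salinity alone gave 298, 332 and 322 FPKM and cadmium alone 332, 318 and 268, all above the control. In acidity, replicate 3 sat below both control libraries and the others above them, and low phosphate overlapped the control.

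Every leaf combination of stresses carried CYP2 above both control libraries. Salinity with water deficit held 456, 442 and 416 FPKM, salinity with acidity 394, 459 and 439, and acidity with water deficit 438, 413 and 407. The 4-stress combination gave 429, 402 and 423, and the 5-stress combination, which added cadmium, gave 251, 260 and 267. The first 4 of these were the highest treatment means of CYP2, and the combination with cadmium was the lowest among the combinations.

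The remaining leaf combinations were close together. Mean CYP2 levels were 361 ± 15.1 FPKM (SD, n = 3 here and for the next values) for salinity with low phosphate, 357 ± 14.0 for the triple without low phosphate, and 351 ± 18 for the triple without water deficit. They were 347 ± 5.90 for acidity with low phosphate, 342 ± 17.4 for the triple without acidity, and 328 ± 31.9 for the triple without salinity. Water deficit with low phosphate was lower, at 288 ± 23.3. In the order of the 18 leaf means, 4 of the 17 gaps between neighbours exceeded the pooled SD within treatments.

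The log2 difference of leaf CYP2 from control was largest for salinity with water deficit, at 1.21 (95% interval 0.98 to 1.44, limma adjusted p = 6.00e-12). It was 1.19 for salinity with acidity (adjusted p = 2.63e-12) and 1.15 for both acidity with water deficit (1.82e-11) and the 4-stress combination (1.52e-11). For salinity alone the difference was 0.75 (0.52 to 0.98, 7.64e-07) and for cadmium alone 0.69 (0.46 to 0.92, 2.65e-06). The leaf differences that limma did not call were those of acidity (0.24, adjusted p = 0.167), water deficit (0.19, 0.219) and low phosphate (-0.09, 0.870). Without replicate 3 the acidity difference of CYP2 was 0.47, with a limma adjusted p of 0.000657.

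In flowers CYP2 scattered widely among replicates of 1 treatment. The 3 control libraries held 573, 593 and 619 FPKM, and cadmium alone gave 349, 361 and 251, below the control in each library. Low phosphate gave 348, 245 and 524 FPKM, acidity with water deficit 314, 503 and 459, and the triple without water deficit 520, 351 and 464. In the triple without acidity, replicate 1 held 259 FPKM and the others 596 and 618. The 5-stress combination gave 592, 366 and 429, which overlapped the control.

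The other flower treatments lay near the control mean of 595 ± 22.9 FPKM (SD, n = 3), from 554 ± 50.7 in salinity to 685 ± 24.1 in the triple without salinity. The pooled SD of CYP2 within treatments was 0.29 on the log2 scale in flower and 0.13 in leaf, and no gap between neighbours in the order of the 18 flower means exceeded it. The flower difference called by limma was that of cadmium, at -0.91 (95% interval -1.37 to -0.45, adjusted p = 0.00258). Low phosphate gave -0.74 (-1.20 to -0.28, adjusted p = 0.0571) for CYP2. Without replicate 3 the cadmium difference was -0.71, with an adjusted p of 0.123.

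ACT11, the actin gene, moved both ways in leaves. Its control libraries held 23.0 and 20.5 FPKM, and acidity with low phosphate gave 30.6, 32.5 and 32.3, the highest mean of the 18. Salinity with low phosphate gave 29.1, 29.2 and 28.6 FPKM, and acidity with water deficit 28.6, 29.7 and 27.7. At the low end, the 5-stress combination gave 16.4, 17.2 and 15.5 FPKM, and water deficit with low phosphate 16.4, 17.5 and 16.7. The groups at both ends did not overlap the control, and within each of them the libraries differed little.

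Between these ends, ACT11 leaf means were 27.6 ± 2.28 FPKM (SD, n = 3 for each treatment named in this paragraph) for salinity with acidity and 25.2 ± 0.998 for the triple without water deficit. They were 24.6 ± 0.418 for the triple without acidity, 24.4 ± 1.21 for the 4 stresses, 23.8 ± 1.10 for cadmium, 23.4 ± 1.03 for salinity and 23.0 ± 0.709 for the triple without low phosphate. Acidity gave 21.9 ± 1.56, salinity with water deficit 21.6 ± 0.425, the triple without salinity 20.0 ± 2.51, low phosphate 18.6 ± 0.166 and water deficit 18.4 ± 2.29. The gap to the next mean exceeded the pooled SD within treatments at 5 of 17 places in this order.

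The ACT11 leaf difference from control on the log2 scale was 0.53 for acidity with low phosphate (95% interval 0.37 to 0.69, limma adjusted p = 3.84e-07), 0.40 for salinity with low phosphate (4.43e-05) and 0.38 for acidity with water deficit (7.13e-05). It rose by 0.33 in salinity with acidity (adjusted p = 0.000277) and by 0.21 in the triple without water deficit (0.0263). ACT11 fell by 0.39 in the 5-stress combination (-0.39, 95% interval -0.54 to -0.23, 4.69e-05), by 0.35 in water deficit with low phosphate (0.000396) and by 0.23 in water deficit (0.0264). The highest leaf mean was 1.94 times the lowest. With median-ratio scaling the ACT11 falls in water deficit (-0.12, adjusted p = 0.381) and in water deficit with low phosphate (-0.12, 0.308) were not called, and cadmium was called as a rise (0.24, 0.0245). Without replicate 2, which leaves 1 control library, 4 leaf treatments were called for ACT11.

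In flowers ACT11 covered a narrower range, with a highest mean 1.27 times the lowest. The control libraries held 46.9, 52.7 and 50.5 FPKM, cadmium 43.7, 42.9 and 39.4, and the triple without acidity 36.7, 44.2 and 45. The 5-stress combination gave 51.2, 36.1 and 39.8 FPKM, which overlapped the control, while the cadmium and triple libraries all lay below it. Treatment means ran from 42.0 ± 4.59 (SD, n = 3) in that triple to 53.3 ± 0.966 in salinity with water deficit, and no gap between neighbours exceeded the pooled SD within treatments.

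Each of these 3 flower differences of ACT11 was -0.25 on the log2 scale, with a limma adjusted p of 0.0143 for cadmium, 0.0296 for the triple and 0.0221 for the 5 stresses. Low phosphate held 42.6, 41.2 and 42.4 FPKM, all below the control, with a difference of -0.24 that was not called (adjusted p = 0.0660). With median-ratio scaling that difference was called (-0.29, limma adjusted p = 0.0408). All 17 flower intervals for ACT11 lay within 1.5-fold of the control, the called ones included. Without replicate 2 the cadmium, triple and 5-stress differences were -0.23, -0.25 and -0.11, and without replicate 3 they were -0.20, -0.30 and -0.21. None of these was called, at adjusted p from 0.13 to 0.632. Without replicate 1 the 5-stress difference of ACT11 was -0.44 (adjusted p = 0.00018).

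SKIP16, the F-box gene, was the flattest of the 5 in flowers. Its flower libraries ran from 36.8 to 49.4 FPKM, and the control libraries held 45, 45.6 and 43.0. Cadmium gave 39.9, 37.2 and 49.4 FPKM, which holds the highest library of the organ, and low phosphate 45.6, 44.5 and 45.1. Water deficit gave 39.7 and 40.0 and acidity 40.0 and 39.8, all below the control libraries.

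The order of the SKIP16 flower means was shallow. From low phosphate (45.1 ± 0.550 FPKM, SD, n = 3) it passed through acidity with water deficit (45 ± 2.03), control (44.6 ± 1.37), the 5 stresses (43.0 ± 3.08), salinity with acidity (42.8 ± 0.923) and salinity with low phosphate (42.7 ± 2.78). Salinity with water deficit (42.2 ± 0.275), cadmium (42.2 ± 6.41), the triple without acidity (42.2 ± 1.44), water deficit with low phosphate (41.3 ± 4.12) and the triple without water deficit (41.3 ± 2.79) stood in the middle. The lower end held the triple without low phosphate (40.9 ± 3.05), the triple without salinity (40.5 ± 0.750), salinity (40.2 ± 1.18), acidity with low phosphate (40.1 ± 1.49) and, with n = 2, the 4 stresses (40.1 ± 4.67), acidity (39.9 ± 0.149) and water deficit (39.8 ± 0.196). No gap between neighbours exceeded the pooled SD within treatments, and the highest mean was 1.13 times the lowest. The gaps do not measure how level a gene was. Flower CYP2 had no such gap either, with a highest mean 2.14 times its lowest.

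None of the 17 flower differences of SKIP16 was called by limma, and 0 had an unadjusted p under 0.05. With median-ratio scaling none was called either, but 7 had an unadjusted p under 0.05 and all 17 differences were below 0, from -0.18 to -0.03. The count at an unadjusted p under 0.05 was 4 with only the treatment and control libraries fitted, 4 with the averaged columns counted and 3 without replicate 3. With the deposited scaling the differences from control lay between -0.16 and 0.02 on the log2 scale, and all 17 of the 95% intervals fell within 1.5-fold of the control, the lowest bound being -0.33. A missed threshold alone does not show that a gene stayed level, and here the intervals give the bound. It held without each replicate number in turn, with 17 of 17 intervals inside the bound each time.

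In leaves SKIP16 was lower than control in most treatments. The control libraries held 30.4 and 29.1 FPKM, and the triple without salinity gave 18, 20.4 and 21.7, the lowest of the organ. Water deficit with low phosphate gave 22.8, 23.4 and 23.1 FPKM, and the triple without low phosphate 21.2, 24.9 and 22.8. Salinity with acidity gave 30.0, 33.2 and 30.7, and the 5-stress combination 31.1, 31.9 and 30.7. These groups were at the top of the order, just above the control mean, and 2 of the 17 gaps between neighbours exceeded the pooled SD within treatments.

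The leaf means of SKIP16 between these ran from 28.7 ± 1.11 FPKM (SD, n = 3) in low phosphate and 28.1 ± 0.421 in acidity with water deficit to 23.4 ± 0.941 in the triple without acidity. The leaf fall was 0.55 on the log2 scale in the triple without salinity (-0.55, 95% interval -0.72 to -0.39, limma adjusted p = 3.81e-07). It was -0.36 in the triple without low phosphate (adjusted p = 0.000263), -0.35 in water deficit with low phosphate (0.000538) and -0.33 in the triple without acidity (0.000836). The other 7 leaf falls of SKIP16 lay between -0.31 and -0.23, and the differences in acidity, water deficit, low phosphate, acidity with water deficit, salinity with acidity and the 5 stresses were not called. In 16 of 17 treatments the 95% interval stayed within 1.5-fold of the control. With median-ratio scaling the falls in salinity, cadmium and salinity with water deficit were not called. Nor were those in water deficit with low phosphate and in the triple without water deficit. Without replicate 1, which leaves 1 control library, 4 leaf treatments were called for SKIP16.

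UKN1 was low in 2 leaf treatments. Its control libraries held 27.5 and 28.0 FPKM, the triple without salinity 18.4, 15.7 and 14.0, and water deficit with low phosphate 15.5, 16.3 and 19.3. The log2 difference was -0.76 in the triple (95% interval -1.02 to -0.51, limma adjusted p = 2.96e-06) and -0.68 in the pair (-0.93 to -0.42, 3.32e-05). The gap above these treatments, 0.32 on the log2 scale, was the one gap between UKN1 leaf means that exceeded the pooled SD within treatments.

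The remaining leaf means of UKN1 ran from 28.9 ± 2.10 FPKM (SD, n = 3) in acidity with water deficit to 21.4 ± 0.314 in the 5 stresses. Of these treatments 4 were called by limma, the 5 stresses (-0.36, adjusted p = 0.0142), salinity (-0.34, 0.0267), the triple without low phosphate (-0.32, 0.0286) and salinity with water deficit (-0.31, 0.0392). With median-ratio scaling, of these 4 only that of the 5 stresses was called (-0.42, adjusted p = 0.00353). Without replicate 1, and likewise without replicate 2, each of which leaves 1 control library, 2 of the 6 calls of UKN1 were made, and without replicate 3 there were 8.

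In flowers UKN1 ranged from 36.4 to 79.1 FPKM over libraries, beside control libraries at 52.7, 56.1 and 47.3. Acidity with water deficit gave 79.1, 49.7 and 66.9 FPKM, the highest mean, and acidity with low phosphate 42.1, 38.4 and 40.6, the lowest. The triple without salinity gave 36.4, 46.8 and 39.0 FPKM, all below the control, with a difference of -0.35 (95% interval -0.58 to -0.12, limma adjusted p = 0.0410). Acidity with low phosphate had a difference of -0.36 with an adjusted p of 0.0522, and acidity with water deficit one of 0.30 with 0.0536. Without replicate 2 the latter was called as a rise of UKN1 (0.53, 0.0102), and the call in the triple was lost without any one replicate number, at adjusted p from 0.106 to 0.242.

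The other flower means of UKN1 lay between 43.5 ± 3.47 FPKM in salinity with acidity and 57.3 ± 5.51 in low phosphate (SD, n = 3 in both). The gap from acidity with water deficit down to low phosphate alone, 0.16 on the log2 scale, was the one that exceeded the pooled SD within treatments. All 17 flower intervals of UKN1 lay within 1.5-fold of the control, the widest reaching -0.58. Without replicate 3, 11 of the 17 did.

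UKN2 was the least abundant of the 5. Its leaf control libraries held 3.78 and 3.48 FPKM, the 4-stress combination 4.57, 5.43 and 5.57, acidity with low phosphate 5.36, 5.31 and 4.51, and salinity with acidity 5.58, 4.34 and 5.18. These lay above the control without overlap, and at the low end water deficit with low phosphate gave 3.32, 3.36 and 3.03. The called leaf differences were 0.41 for the 4 stresses (95% interval 0.15 to 0.68, limma adjusted p = 0.0066), 0.39 for acidity with low phosphate (0.0142), 0.38 for salinity with acidity (0.0106), 0.33 for the triple without low phosphate (0.0299) and 0.33 for acidity with water deficit (0.0355).

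Other leaf combinations were not called for UKN2, among them salinity with low phosphate (0.27, adjusted p = 0.0890), the triple without acidity (0.27, 0.0964), the triple without salinity (0.16, 0.315) and the triple without water deficit (0.14, 0.365). The scale of log2(FPKM + 1) understates changes of a gene at this level. No gap in the order of UKN2 leaf means, from 5.19 ± 0.540 FPKM (SD, n = 3) in the 4 stresses to 3.24 ± 0.180 in water deficit with low phosphate, exceeded the pooled SD within treatments. Without replicate 1, and likewise without replicate 2, limma called 1 of the 17 leaf treatments for UKN2.

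In flowers UKN2 libraries lay between 5.18 and 8.99 FPKM, beside 6.26, 6.97 and 6.76 in the control. Treatment means ran from 7.75 ± 1.07 FPKM in salinity with low phosphate to 5.76 ± 0.449 in the triple without water deficit (SD, n = 3 in both), in an order with no gap over the pooled SD within treatments. No flower difference of UKN2 was called by limma and 0 had an unadjusted p under 0.05. The differences lay between -0.18 and 0.19, and all 17 intervals were within 1.5-fold of the control, with bounds from -0.40 to 0.40.

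Counting treatments whose 95% interval fell wholly within 1.5-fold of control gave a measure of which genes could be called level. In flower the count was 17 of 17 for ACT11, UKN1, SKIP16 and UKN2, and 7 of 17 for CYP2. In leaf it was 16 for ACT11, 16 for SKIP16, 13 for UKN1, 12 for UKN2 and 3 for CYP2. The bound applies on the log2(FPKM + 1) scale. With a pseudocount of 0.1 FPKM the leaf count was 10 for UKN2 and 11 for UKN1, and the flower count of UKN1 was 15. A call and a small interval can stand together, as for SKIP16 in leaf, where 11 treatments were called and 16 stayed within the bound.

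**Figure D3:**
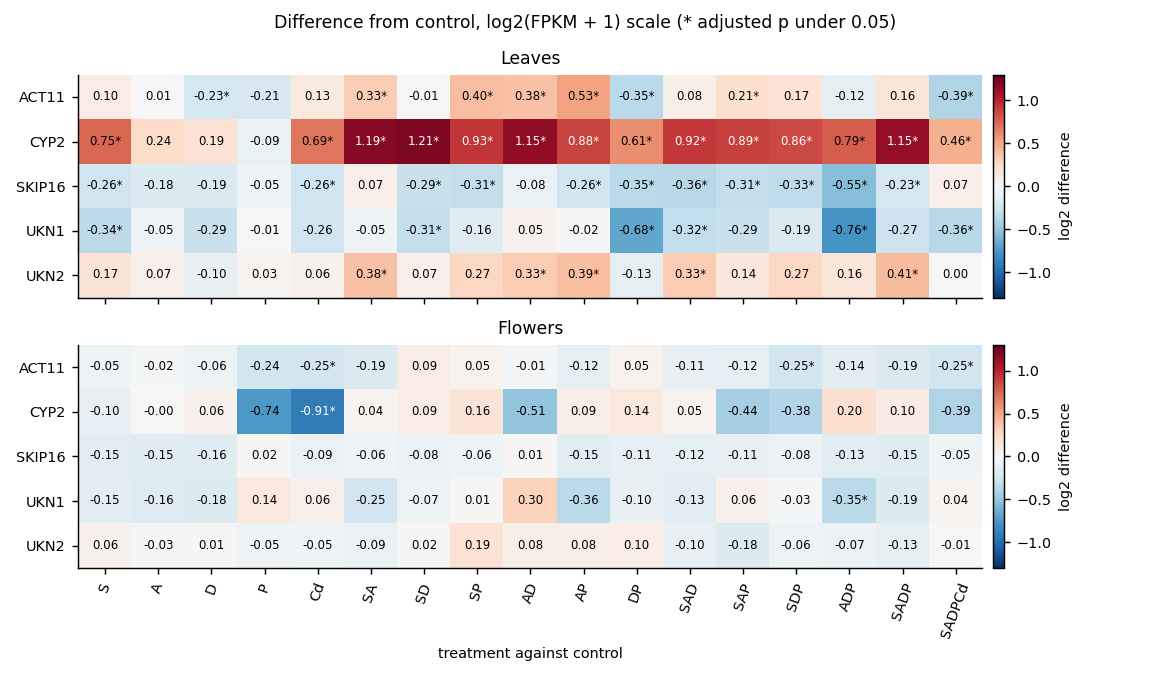
Difference of each treatment mean from the control of its organ (log2, colour and printed value) for the 5 genes, with an asterisk where the limma adjusted p was under 0.05 (S salinity, A acidity, D water deficit, P low phosphate, Cd cadmium). The leaf row of CYP2 is raised almost throughout, to 1.21, and the flower rows of SKIP16 and UKN2 hold no asterisk.

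Read by treatment, low phosphate in leaf changed 0 of the 5 genes by limma (3.82% of tested features called; 1 of the 5 had an unadjusted p under 0.05), and acidity also 0 (12.2%; 2 of the 5). Water deficit changed ACT11 (24.1% of features called), salinity changed CYP2, UKN1 and SKIP16 (41.5%), and cadmium changed CYP2 and SKIP16 (47.2%). The share of features called ran over the 17 leaf treatments from 3.82% to 70.1%, with a median of 49.2%. With median-ratio scaling, UKN1 (-0.26, limma adjusted p = 0.101) and SKIP16 (-0.17, 0.104) in salinity and SKIP16 in cadmium (-0.14, 0.158) were not called. Nor was ACT11 in water deficit, where CYP2 was then called (0.31, 0.0494), and ACT11 was called in cadmium.

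Among leaf pairs, salinity with acidity changed 3 of the 5 (ACT11, CYP2 and UKN2, 70.1% of features called), salinity with water deficit 3 (CYP2, UKN1 and SKIP16, 52.4%) and salinity with low phosphate 3 (ACT11, CYP2 and SKIP16, 49.2%). Acidity with water deficit changed 3 (ACT11, CYP2 and UKN2, 50.1%), acidity with low phosphate 4 (all but UKN1, 45.9%) and water deficit with low phosphate 4 (all but UKN2, 46.3%). With median-ratio scaling, UKN1 (-0.21, limma adjusted p = 0.157) and SKIP16 (-0.19, 0.0539) were not called in salinity with water deficit. ACT11 and SKIP16 were then not called in water deficit with low phosphate.

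Among the larger leaf combinations, the triple without low phosphate changed 4 of the 5 (all but ACT11, 55.2% of features called), the triple without water deficit 3 (ACT11, CYP2 and SKIP16, 52.4%) and the triple without acidity 2 (CYP2 and SKIP16, 44.8%). The triple without salinity changed 3 (CYP2, UKN1 and SKIP16, 57.4%), the 4 stresses 3 (CYP2, SKIP16 and UKN2, 57.6%) and the 5 stresses 3 (ACT11, CYP2 and UKN1, 60.3%). With median-ratio scaling, UKN1 was not called in the triple without low phosphate (-0.25, limma adjusted p = 0.0939). Nor was SKIP16 in the triple without water deficit (-0.18, 0.0705), and UKN2 was called in the triple without salinity (0.41, 0.00661).

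In flower, the calls against control stood in 4 treatments. Cadmium changed ACT11 and CYP2 (30.2% of features called), the triple without acidity changed ACT11 (11.3%), the 5 stresses changed ACT11 (17.6%) and the triple without salinity changed UKN1 (10.1%). In the other 13 flower treatments none of the 5 was called. With median-ratio scaling, ACT11 in low phosphate and UKN1 in acidity with low phosphate (-0.37, limma adjusted p = 0.0340) were called too. The share of features called was 4.52% in salinity, 6.69% in acidity, 7.96% in water deficit and 3.35% in low phosphate. Among pairs it was 10.3% in salinity with acidity, 4.65% in salinity with water deficit, 1.87% in salinity with low phosphate, 21.0% in acidity with water deficit, 6.13% in acidity with low phosphate and 5.38% in water deficit with low phosphate. The triple without low phosphate had 7.88%, the triple without water deficit 9.55% and the 4 stresses 3.48%. At an unadjusted p under 0.05 these 13 treatments held 8 differences, of ACT11 in 3, CYP2 in 2 and UKN1 in 3. The median share over the 17 flower treatments was 7.88%, so that few calls among 5 genes is near the background too.

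In the factorial of 16 treatments, the mean of the 8 treatments with a stress less that of the 8 without it gives the stress's average effect. Salinity raised CYP2 by 0.52 on the log2 scale in leaf (95% interval 0.44 to 0.59, limma adjusted p = 2.25e-15), ACT11 by 0.18 (1.11e-07) and UKN2 by 0.16 (0.000506), 3 of the 5 genes where 70.7% of features were called. Acidity raised the same 3, CYP2 by 0.34 (0.27 to 0.42, 2.20e-10), ACT11 by 0.21 (4.83e-09) and UKN2 by 0.20 (3.16e-05), where 61.8% of features were called. SKIP16 and UKN1 had average effects of these stresses between -0.04 and 0.03 that were not called. With median-ratio scaling the salinity effect of SKIP16 was -0.09 and was called (adjusted p = 0.00631).

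Water deficit split the genes in leaf. It raised CYP2 by 0.26 (95% interval 0.19 to 0.33, limma adjusted p = 2.49e-07) and lowered UKN1 (-0.23, 7.72e-06), ACT11 (-0.16, 3.37e-06) and SKIP16 (-0.13, 0.000107), 4 of the 5 genes where 50.0% of features were called. Low phosphate lowered SKIP16 (-0.14, 0.00018) and UKN1 (-0.14, 0.00788), 2 of the 5 where 32.8% were called. With median-ratio scaling the water deficit effect of SKIP16 (-0.07, adjusted p = 0.0514) and the low phosphate effect of UKN1 (-0.08, 0.129) were not called, and that of CYP2 under low phosphate was (0.10, 0.0400). With the deposited scaling UKN1 and SKIP16 were called low together under these stresses, joined by ACT11 under water deficit. With median-ratio scaling UKN1 and SKIP16 were called low together under neither. ACT11, CYP2 and UKN2 were called high together under salinity and acidity.

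In flower, the average effects lay within 0.10 of 0 for all 5 genes and 4 stresses. The one called by limma was a fall of ACT11 under low phosphate of 0.08 (-0.08, 95% interval -0.12 to -0.03, adjusted p = 0.0478), 1 of the 5 where 4.23% of features were called. No gene of the 5 was called for salinity, acidity or water deficit in flower, where 3.98%, 12.7% and 20.9% of features were, and at an unadjusted p under 0.05 these stresses had 0, 3 and 0 of the 5 genes. ACT11 under low phosphate was not called without any one replicate number, at adjusted p from 0.0958 to 0.487.

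Effects of one stress in leaf depended on another for 4 of the 5 genes. The interaction, the effect of a stress with the second present less its effect without, was -0.49 for CYP2 between salinity and acidity (95% interval -0.64 to -0.34, limma adjusted p = 5.28e-07), -0.37 for ACT11 (1.44e-07) and 0.21 for SKIP16 (0.00145), 3 of the 5 where 53.8% of features were called. Salinity with water deficit gave -0.33 for CYP2 (0.000383) and 0.34 for UKN1 (0.000867), 2 of the 5 where 38.1% were called. Salinity with low phosphate gave 0.33 for UKN1 (0.0014), -0.21 for CYP2 (0.0250) and 0.19 for ACT11 (0.00485), 3 of the 5 where 30.8% were called.

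Acidity with low phosphate gave an interaction of -0.22 for UKN1 in leaf (limma adjusted p = 0.0241), 1 of the 5 where 36.5% of features were called. Water deficit with low phosphate gave -0.25 for UKN1 (0.0115) and -0.21 for ACT11 (0.00118), 2 of the 5 where 38.9% were called. For acidity with water deficit none of the 5 was called by limma, where 6.07% of features were, and 0 had an unadjusted p under 0.05. With median-ratio scaling the interactions of ACT11 between salinity and low phosphate (0.07, adjusted p = 0.404) and of UKN1 between acidity and low phosphate (-0.11, 0.305) were not called. UKN2 had no called interaction in leaf, and the salinity with low phosphate interaction of CYP2 was not called without any one replicate number, at adjusted p from 0.0508 to 0.117.

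The called interactions of CYP2 were all negative, that is, salinity added less to it on average where acidity, water deficit or low phosphate was present. From low phosphate to low phosphate with salinity, CYP2 went from 177 ± 10.0 FPKM to 361 ± 15.1 (SD, n = 3 for each treatment here), and with acidity present from 347 ± 5.90 to 351 ± 18. From water deficit to salinity with water deficit it went from 215 ± 13.0 to 438 ± 20.7, and with acidity present from 419 ± 16.5 to 357 ± 14.0. The average covers unlike steps. Salinity took CYP2 from 228 ± 57.3 in acidity alone to 431 ± 33.0, and from 189 ± 12.7 in the control (n = 2) to 317 ± 17.7. In fold terms, no single-stress background gave a smaller salinity step than the control did. The smaller steps were in backgrounds that already combined stresses.

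In flower no interaction of the 5 genes was called by limma, and 6 of 30 had an unadjusted p under 0.05, 4 of them those of UKN1. The share of flower features called was 1.26% for salinity by acidity, 3.19% for salinity by water deficit and 7.60% for acidity by water deficit. For low phosphate it was 1.42% with salinity, 1.03% with acidity and 1.60% with water deficit. The lowest adjusted p among them was 0.10, for UKN1 between salinity and low phosphate (0.27).

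Adding cadmium to the 4 stresses moved 4 of the 5 genes in leaf, where 51.5% of features were called by limma. CYP2 went from 429, 402 and 423 FPKM to 251, 260 and 267, a difference of -0.69 (95% interval -0.89 to -0.48, adjusted p = 2.88e-07). ACT11 went from 23.4, 24.1 and 25.7 to 16.4, 17.2 and 15.5 (-0.55, -0.69 to -0.40, 1.67e-08), and UKN2 from 4.57, 5.43 and 5.57 to 3.74, 3.18 and 4.05 (-0.41, 0.00339). In each of these genes the libraries of both treatments did not overlap. Without replicate 2 the UKN2 difference was -0.30 (adjusted p = 0.10).

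SKIP16 went the other way in leaf, from 25.3, 24.5 and 26.1 FPKM to 31.1, 31.9 and 30.7, a rise of 0.29 (95% interval 0.15 to 0.44, limma adjusted p = 0.000906). UKN1 held 23.0, 22.8 and 22.6 FPKM in the 4 stresses and 21.5, 21.1 and 21.7 with cadmium added (-0.09, adjusted p = 0.551). In leaf, cadmium alone had given SKIP16 a fall of 0.26 (-0.26, adjusted p = 0.00758) and CYP2 a rise of 0.69. With median-ratio scaling that fall of SKIP16 was not called (-0.14, limma adjusted p = 0.158), and its rise with cadmium added was (0.19, 0.0268). In flower the addition of cadmium changed 0 of the 5 by limma, where 0.503% of features were called and 0 of the 5 had an unadjusted p under 0.05, and the largest of these differences was that of CYP2 (-0.50, 95% interval -1.01 to 0.02, adjusted p = 0.418).

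Whether an effect differed between the organs was tested as the leaf effect less the flower effect in 1 model of all 36 groups, over 27337 features tested in both. For salinity, 3 of the 5 genes differed by limma, CYP2 by 0.48 (95% interval 0.30 to 0.66, adjusted p = 5.99e-06), UKN2 by 0.21 (0.00100) and ACT11 by 0.21 (1.82e-06), where 57.6% of features differed. For acidity the same 3 differed, CYP2 by 0.31, UKN2 by 0.29 and ACT11 by 0.27 (adjusted p = 0.00394, 1.37e-05 and 4.37e-09), where 49.0% of features did. Each was higher in the leaf than in the flower contrast.

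For water deficit, 3 of the 5 genes differed between the organs in the other direction, UKN1 by -0.23 (limma adjusted p = 0.00149), ACT11 by -0.17 (0.000211) and SKIP16 by -0.12 (0.0127), where 36.2% of features did. For low phosphate SKIP16 differed by -0.13 (0.0119), 1 of the 5 where 17.7% of features did. Cadmium alone differed most, by 1.60 for CYP2 (95% interval 1.07 to 2.13, adjusted p = 7.95e-07) and by 0.37 for ACT11 (0.00338), 2 of the 5 where 47.3% of features did. With median-ratio scaling the water deficit differences of ACT11 (-0.10, adjusted p = 0.0532) and SKIP16 (-0.05, 0.374) and the low phosphate difference of SKIP16 (-0.07, 0.212) were not called. Under that scaling the low phosphate difference of ACT11 (0.15, 0.00788) and the water deficit difference of CYP2 (0.24, 0.0407) were called. For CYP2 the cadmium effect was a leaf rise of 0.69 and a flower fall of 0.91, in opposite directions. The 5-stress effect differed by 0.85 for CYP2 (0.00606) and by -0.40 for UKN1 (0.0498), 2 of the 5 where 47.3% of features did. Without replicate 2 the 5-stress difference of CYP2 was 0.77 (adjusted p = 0.117) and the cadmium difference of ACT11 0.23 (0.257), and that of UKN1 was not called without any one replicate number.

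Quantitative PCR uses ratios, so the spread of the log2 ratio of each pair of the 5 genes over libraries was computed as in the geNorm procedure, which does not depend on library scaling. Of the 10 pairs, UKN1 with SKIP16 had the lowest SD in both organs, 0.22 in leaf and 0.17 in flower. ACT11 with UKN2 was next, at 0.24 and 0.17. The widest pair in both organs was CYP2 with UKN1, at 0.50 in leaf and 0.57 in flower. The 4 pairs with CYP2 were the widest 4 in flower, while in leaf ACT11 with SKIP16 (0.334) slightly exceeded ACT11 with CYP2 (0.327).

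**Figure D4:**
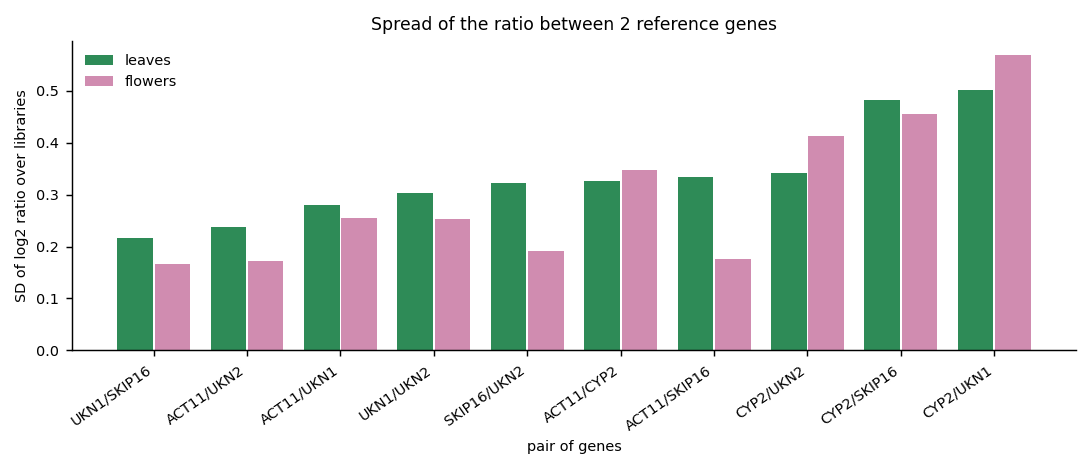
SD over libraries of the log2 ratio of each pair of the 5 genes (bars from 0) in leaf and in flower, ordered by the leaf value. UKN1 with SKIP16 is lowest in both organs, and CYP2 with UKN1 is highest in both, at 0.50 and 0.57.

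What such a ratio would do to a measurement can be read from the treatment means. The ratio of CYP2 to SKIP16 in leaf was 6.33 in the control and 18.1 in salinity with water deficit, so that a target read against the one or the other would differ by the change in this ratio. The CYP2 to UKN1 ratio ran in leaf from 6.42 in low phosphate to 20.5 in the triple without salinity, and in flower from 5.82 in cadmium to 16.9 in the same triple. By contrast the ratio of UKN1 to SKIP16 spanned 1.61-fold in leaf and 1.42-fold in flower, and that of ACT11 to UKN2 1.41-fold and 1.26-fold.

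The mean SD over the 4 pairs of a gene was lowest for ACT11 in both organs, at 0.29 in leaf and 0.24 in flower, and highest for CYP2, at 0.41 and 0.45. UKN2 followed ACT11 in leaf at 0.30, with UKN1 at 0.33 and SKIP16 at 0.34. In flower, SKIP16 was second at 0.25, then UKN2 at 0.26 and UKN1 at 0.31. Dropping the widest gene step by step ended with ACT11 and UKN2 in both organs, while the spread of treatment means placed SKIP16 first in both.

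The 2 measures gave different orders for the same libraries. In leaf, ACT11 and UKN2 had r = 0.60 over 53 libraries and 0.82 over the 18 treatment means, but -0.33 after removing treatment means. UKN1 and SKIP16 had r = 0.56 in leaf and 0.62 over the 51 flower libraries, and 0.24 and 0.54 after removing treatment means. ACT11 and SKIP16 had r = -0.04 in leaf. These correlations are descriptions across libraries that share scaling and treatments.

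Subsets were averaged as log2(FPKM) with no pseudocount, so their values differ somewhat from those above. The log2 mean of SKIP16 and UKN2 had the lowest SD of treatment means among leaf subsets of the 5 genes, 0.13, with a span of 1.45-fold over treatments and at most 1.2-fold from control. SKIP16 alone gave 0.17 in leaf, a span of 1.57-fold and at most 1.49-fold from control. In flower no subset had a lower value than SKIP16 alone, with 0.06 and a span of 1.13-fold, and ACT11 with SKIP16 gave 0.06 and 1.14-fold. All 5 together spanned 1.52-fold in leaf and 1.25-fold in flower. These subsets were ranked on the libraries they describe, with no separate test.

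CYP2 and UKN1 ran against each other in flowers, with r = -0.67 over 51 libraries, -0.57 after removing treatment means and -0.72 over the 18 treatment means. The flower library with the highest UKN1, acidity with water deficit replicate 1, held 79.1 FPKM of it and 314 FPKM of CYP2. Replicate 1 of the triple without acidity, where CYP2 was 259 FPKM, held 55.1 of UKN1, the highest of its group. In leaf the correlation was -0.11 over 53 libraries, -0.33 after removing treatment means and -0.12 over the 18 treatment means.

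**Figure D5:**
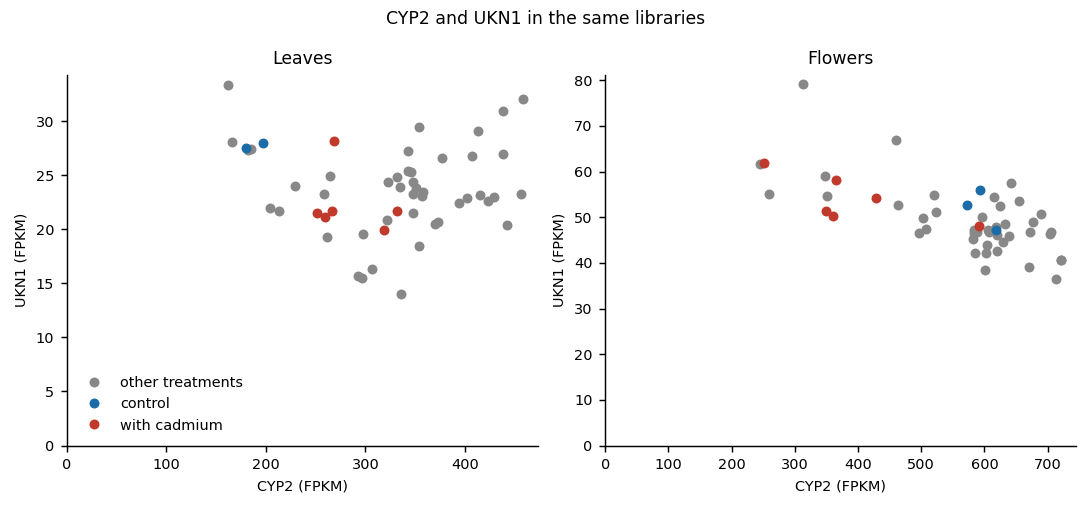
UKN1 (vertical axis, FPKM) against CYP2 (horizontal axis, FPKM) in each leaf library and each flower library, with controls in blue and libraries with cadmium in red. In flowers the points slope downward (r = -0.67), and the 9 libraries with CYP2 at or below 366 FPKM all held at least 50.3 FPKM of UKN1.

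Library scaling moved with some of these genes. Over leaf libraries the correlation with the median-ratio scale factor was 0.71 for SKIP16, 0.71 for UKN1, 0.37 for UKN2, 0.32 for ACT11 and 0.06 for CYP2. In flower it was -0.70 for CYP2, -0.56 for ACT11 and 0.43 for UKN1. The part of scaling in these levels was tested only by refitting with each library divided by that factor.

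That scaling moved the median difference of all tested leaf features by 0.24 on the log2 scale in the triple without salinity, 0.19 in water deficit with low phosphate and 0.11 in the triple without water deficit, and by less than 0.1 in the other leaf and all flower treatments. Under it, SKIP16 fell in 6 leaf treatments in place of 11, and UKN1 in 3 in place of 6. The leaf triple without salinity then gave -0.25 for SKIP16 (limma adjusted p = 0.0119), -0.46 for UKN1 (0.0021), 1.11 for CYP2 (2.14e-10) and 0.41 for UKN2 (0.00661). In water deficit with low phosphate SKIP16 (-0.12, adjusted p = 0.258) and ACT11 (-0.12, 0.308) were no longer called. SKIP16 stayed among the narrow features, with 4.18% of leaf and 0.678% of flower features at a lower SD of treatment means.

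The features most like each gene over the libraries of an organ, by Pearson's r of log2(FPKM + 1) among all tested features, were named without reading function into them. In leaf (53 libraries) they were GLYMA_18G255700 (r = 0.93) and GLYMA_20G159200 (0.91) for ACT11, and GLYMA_11G098700 (0.93) and GLYMA_09G134500 (0.93) for CYP2. UKN1 was closest to GLYMA_14G116600 (0.83) and GLYMA_02G212200 (0.82), SKIP16 to GLYMA_18G242500 (0.85) and GLYMA_20G217200 (0.82), and UKN2 to GLYMA_16G215500 (0.75) and GLYMA_18G220700 (0.74). No member of the 5 was among the closest features of another.

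In flower (51 libraries) the closest features were GLYMA_11G239400 (r = 0.96) and GLYMA_08G131500 (0.96) for CYP2, and GLYMA_04G215900 (0.83) and GLYMA_08G115600 (0.81) for ACT11. UKN1 was closest to GLYMA_01G105500 (0.84) and GLYMA_13G206500 (0.82). SKIP16 had its highest values with GLYMA_10G014300 (0.65) and GLYMA_17G062900 (0.64), and UKN2 with GLYMA_12G102600 (0.55) and GLYMA_09G041000 (0.52). SKIP16 and UKN2, the genes that varied least in flower, had the weakest likenesses there.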

How the data were processed

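Leaf and flower RNA-seq was analysed from 1 expression table per organ. The authors deposited FPKM values, and per the submitters' processing notes HISAT2 2.2.1 was used. The counting tool, annotation and genome build are not given in the sources used here. Read totals are unknown, so no counting interval was computed.

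The labels gave the groups. The 4 averaged columns equalled the mean of their group's other columns at a tolerance of 1e-05. Values were transformed to log2(FPKM + 1), a pseudocount of 1 FPKM. Testing covered features averaging 1 FPKM or more in an organ, with limma 3.58.1 (R 4.3.3; trend and robust moderation, all 18 treatments of an organ in 1 fit, or the 16 of the factorial) and Benjamini-Hochberg adjustment over them at 0.05. Intervals are at 95%. The fits were also run on simulated data with independent noise and few changed features, unlike the leaf data. No result here rests on that run. Plots were drawn with matplotlib 3.10.9, and tables were handled in pandas 2.3.3 and numpy 2.4.6 under Python 3.11.15.

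The named genes are the 5 reference genes and, for each organ, the 2 features with the highest Pearson's r to each. The members were chosen by name, and members, lists and tests alike with earlier results of these data known. None of the IDs (0) matched the RefSeq names table, so related gene families, closest paralogs, organ markers and sequences were left out. Each sample is called a biological repeat in the labels' protocols. The alternatives were another pseudocount, no filter, median-ratio scaling, counting the averaged columns, a replicate block, leaving out each replicate, another moderation, fitting 2 groups at a time and a 2-fold bound.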

Additional observations from a re-analysis of the deposited data

Results flagged for a closer look

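For 14 pairs of a gene and a stress, the effect in leaf and the effect in flower differed by a test of the difference itself (limma, adjusted p under 0.05, leaf effect less flower effect on the log2 scale). Under salinity, averaged over the factorial, these were ACT11 (0.21), CYP2 (0.48) and UKN2 (0.21), and under acidity ACT11 (0.27), CYP2 (0.31) and UKN2 (0.29). Water deficit gave ACT11 (-0.17), UKN1 (-0.23) and SKIP16 (-0.12), and low phosphate gave SKIP16 (-0.13). Cadmium alone against control gave ACT11 (0.37) and CYP2 (1.60), and the 5-stress combination gave CYP2 (0.85) and UKN1 (-0.40). With median-ratio scaling the differences of ACT11 and SKIP16 under water deficit and of SKIP16 under low phosphate were not called. Without 1 replicate number or another, neither were UKN2 under salinity, UKN1 under water deficit, SKIP16 under water deficit and low phosphate, ACT11 under cadmium, and CYP2 and UKN1 under the 5 stresses. All 5 genes were tested in each of these comparisons between the organs, and 1 to 3 of the 5 were called in each. Among the 27337 features tested in both organs, the share called by limma ranged from 17.7% (low phosphate) to 57.6% (salinity). The 14 differences are thus near the background in number and do not set these genes apart. No technical or biological reason for these differences was tested.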

How the results depend on the processing

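No difference named above reversed its direction under any alternative while called in both fits. Of the tests of single genes under the alternatives, 2819 were called or not called as before, 101 lost the call and 40 gained one. Differences called in neither fit were counted as unchanged whatever their direction, and some of them changed sign. With median-ratio scaling, leaf calls against control went from 6 to 3 for UKN1 and from 11 to 6 for SKIP16. Flower calls went from 1 to 2 for UKN1 and from 3 to 4 for ACT11. With the averaged columns counted as libraries, they were 10 for UKN1 in leaf, 2 for CYP2 and 3 for UKN1 in flower. With only the treatment and control libraries fitted, flower calls were 1 for ACT11 and 2 for CYP2, and 11 of the CYP2 intervals fell within 1.5-fold. With no filter, UKN1 had 0 flower calls by limma, with 4 treatments at an unadjusted p under 0.05. With a bound of 2-fold, 7 leaf and 15 flower treatments of CYP2 were inside it.

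Leaving out each replicate number in turn, leaf calls ran from 4 to 7 for ACT11, 2 to 8 for UKN1, 4 to 12 for SKIP16 and 1 to 4 for UKN2, and flower calls from 0 to 3 for ACT11 and 0 to 1 for CYP2 and for UKN1, whose 1 call there was a rise in acidity with water deficit. Treatments within 1.5-fold ran from 6 to 11 for UKN1 and 9 to 16 for SKIP16 in leaf, and from 0 to 8 for CYP2 and 11 to 16 for UKN1 in flower. The adjusted p of the flower F-test by limma ran from 0.000417 to 0.269 for ACT11, 0.00175 to 0.108 for CYP2 and 0.011 to 0.156 for UKN1. Leaving out replicate 1 or 2 leaves 1 leaf control library, and replicate 2 or 3 leaves 1 library in 3 flower groups, which is then assumed to vary like the others. The causes were not tested.

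The replicate numbers did not pair the samples: deviations of same-numbered libraries correlated with a median r of 0.00 in both organs, and 12 of 53 leaf and 12 of 51 flower libraries correlated best with their own number. With the replicate block, UKN1 had 7 leaf calls in place of 6, and the other counts of calls were the same. Read depth is unknown, which limits what can be said of the precision of UKN2.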
